A study of Homo sapiens with 13 samples.

Results

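The insulin-like growth factor (IGF) axis was followed in H82 and H146 cells, which are established small cell lung cancer (SCLC) lines, with and without the SMARCA4/SMARCA2 inhibitor FHD-286. It was taken as 10 genes picked by symbol, namely the ligands *IGF1* and *IGF2*, the receptors *IGF1R* and *IGF2R*, the binding proteins *IGFBP2*, *IGFBP3*, *IGFBP4* and *IGFBP5*, and the adaptors *IRS1* and *IRS2*. All 10 were found among the 56831 genes listed for each line. Both lines are labelled wild type and were grown in RPMI1640 medium with serum. Treated cells received 100 nM FHD-286 for 14 days, whereas the untreated cells received none. There were 3 untreated and 3 treated libraries of H82, and 3 untreated and 4 treated libraries of H146. Nothing in the labels says whether libraries of a group came from separate cultures, so *p* values measure only the spread between these libraries. Each group is a single cell line at a single dose and time, and bulk RNA cannot tell fewer cells of a kind from less RNA per cell.

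IGF1 and IGF2 are secreted peptides that bind the receptor tyrosine kinase IGF1R. The activated receptor phosphorylates the docking proteins IRS1 and IRS2, which recruit PI3K and thereby AKT and mTOR. IGF2R has no kinase activity and carries IGF2 to lysosomes for degradation. Secreted IGF-binding proteins hold the ligands outside the cell and can restrain or prolong their action, and several proteases cut them to set the ligands free. SCLC cells have long been known to grow in response to IGF1.

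Values are TPM, transcript abundances scaled for gene length to the same total in each library, so the number of reads behind a value is unknown. Differences are treated minus untreated on the log2(TPM + 1) scale, a scale that understates the change of low genes. They were tested with limma in each line over every gene that reached 1 TPM in 3 or more of its libraries, and a gene was called at a Benjamini-Hochberg adjusted *p* under 0.05, two-sided. Of the 10 genes, 7 passed this filter in each line, and *IGF1*, *IGF2* and *IGFBP3* did not in either.

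The libraries of a line were not alike in composition. Mitochondrial genes took 22.1% to 24.1% of TPM in H82 without drug and 12.3% to 14.9% with it, against 3.82% to 11.4% in H146. Over all tested genes the median difference came to -0.56 (H82) and 0.25 (H146), and median-of-ratios scaling moved these medians to -0.14 and -0.02. Neuroendocrine markers reached 1 TPM for 6 of 6 genes in every H82 library and for 5 of 6 in every H146 library, where *NEUROD1* stayed under 1 TPM. Their levels were not constant. In H82, *SYP* was at 193 to 212 TPM untreated and 31.5 to 58.1 TPM treated, *CHGA* at 114 to 159 and 14.3 to 62.5 TPM. *NEUROD1* was at 224 to 234 and 48.0 to 112 TPM there. *INSM1* went from 12.5 to 15.8 TPM up to 32.1, 296 and 33.9 TPM, while *NCAM1* and *DLL3* overlapped between groups. Of 12 markers of fibroblasts, endothelial cells and leukocytes, 0 to 1 reached 1 TPM in the untreated H82 libraries, 3 to 5 did so after treatment and 3 to 5 did in H146, with summed levels of 2.78 to 3.84, 8.21 to 33.6 and 14.0 to 30.0 TPM. The endothelial marker *CDH5* and the T cell marker *CD3E* were at or near 0 throughout, but other markers of these cells were not. The leukocyte marker *PTPRC* was at 3.29 to 6.75 TPM in H146, and the endothelial marker *VWF* at 1.60 to 2.25 TPM in untreated H146. The fibroblast marker *COL1A1* was at 4.95, 0.141 and 16.7 TPM in treated H82.

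Library 2 of treated H82 stood apart in genes that otherwise mark H146. A set of 114 genes, each with at least 20 TPM in all untreated H146 libraries and at most 0.1 TPM in all untreated H82 libraries, summed to only 1.13 to 1.34 TPM in H82 without drug. The sum was 82.4, 428 and 36.7 TPM in treated H82 libraries 1, 2 and 3, against 10570 to 11582 TPM in untreated H146. Library 2 therefore held 3.86% of the untreated H146 mean, with 50 of the 114 genes at 1 TPM or more. Where leaving out this library moved a called value by over 1.5 times or changed a call, the value without it is given as well.

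In H82, treatment with FHD-286 went with lower *IGF1R*, *IGF2R*, *IRS1* and *IRS2* and by higher *IGFBP2*, *IGFBP4* and *IGFBP5*. In H146, *IGF1R* and *IRS1* were higher, *IRS2* and the same binding proteins were lower, and *IGF2R* was not called. Thus 4 of the 7 tested genes were lower and 3 higher in H82, where 45.5% of all tested genes were lower and 13.1% higher. With median-of-ratios scaling 2 were lower and 3 higher in H82, where the shares of all tested genes were 32.9% and 24.2%. In H146, 4 of 7 were lower and 2 higher, where 15.5% of all tested genes were lower and 32.5% higher. The median over the 7 genes was -0.57 in H82 and -0.98 in H146, beside -0.56 and 0.25 over all tested genes. Since *IGFBP5* in H82 passed the filter only through its treated libraries, these counts describe the genes and support nothing further.

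**Figure D1:**
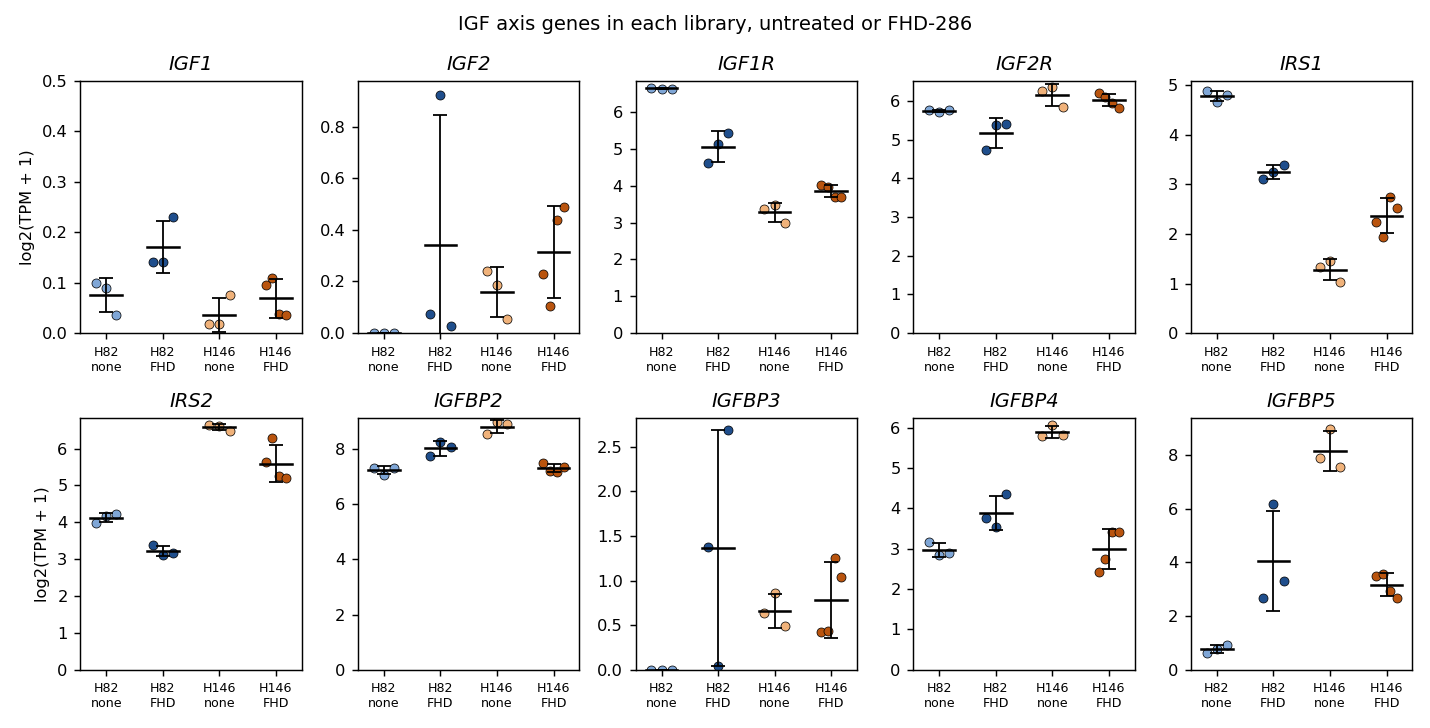
Level of each of the 10 IGF axis genes as log2(TPM + 1), with 1 point per library, a bar at the group mean and error bars of 1 SD, for H82 (n = 3 untreated, 3 treated) and H146 (n = 3 untreated, 4 treated); "none" is untreated, "FHD" is FHD-286, and each panel has its own axis from 0. The binding proteins *IGFBP2*, *IGFBP4* and *IGFBP5* lie higher in treated than untreated H82 and lower in treated than untreated H146, whereas *IGF1* stays under 0.2 TPM in all 13 libraries.

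In all, 5 of the 7 genes were called in opposite directions in the lines, compared with 15.5% of the 15679 genes tested in both. These were *IGF1R*, *IRS1*, *IGFBP2*, *IGFBP4* and *IGFBP5*. With median-of-ratios or quantile scaling the number was 4, since *IGF1R* was then no longer called in H146. Of all genes tested in both lines, median-of-ratios scaling put 4.8% lower in H82 and higher in H146, and 8% the reverse. Quantile scaling put 5.63% and 5.77% of them there. *IGFBP5* is 1 of the 5 and entered the H82 test only through its treated libraries, so the count is a description. A direct test of the difference between lines called the same 5 genes of the 8 axis genes tested, where 59.3% of all tested genes were called.

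The 250 bases upstream of the start of these 5 genes are shown because they are the genes that moved in opposite directions. They are RefSeq promoter sequences (GRCh38.p14) given 5′ to 3′ on the strand of the gene. Capitals mark matches on either strand to an E-box (CANNTG), the core bound by neuroendocrine bHLH factors, or to a TEAD motif (GGAATG, or CATTCC on the other strand).

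*IGFBP2* (chr2:216632578-216632827, plus strand): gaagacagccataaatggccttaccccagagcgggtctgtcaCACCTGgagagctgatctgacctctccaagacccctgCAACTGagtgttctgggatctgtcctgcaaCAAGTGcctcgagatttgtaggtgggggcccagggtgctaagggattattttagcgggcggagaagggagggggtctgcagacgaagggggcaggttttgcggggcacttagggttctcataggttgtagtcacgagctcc
*IGFBP4* (chr17:40443200-40443449, plus strand): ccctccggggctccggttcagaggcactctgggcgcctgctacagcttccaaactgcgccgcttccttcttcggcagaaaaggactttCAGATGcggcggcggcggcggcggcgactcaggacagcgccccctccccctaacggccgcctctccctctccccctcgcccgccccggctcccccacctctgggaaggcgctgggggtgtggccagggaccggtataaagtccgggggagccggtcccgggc
*IGFBP5* (chr2:216695550-216695799, minus strand): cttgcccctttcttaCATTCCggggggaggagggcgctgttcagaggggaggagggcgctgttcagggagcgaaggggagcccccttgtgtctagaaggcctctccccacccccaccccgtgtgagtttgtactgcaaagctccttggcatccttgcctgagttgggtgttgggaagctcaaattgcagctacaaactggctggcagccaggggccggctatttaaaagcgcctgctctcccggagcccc
*IGF1R* (chr15:98648289-98648538, plus strand): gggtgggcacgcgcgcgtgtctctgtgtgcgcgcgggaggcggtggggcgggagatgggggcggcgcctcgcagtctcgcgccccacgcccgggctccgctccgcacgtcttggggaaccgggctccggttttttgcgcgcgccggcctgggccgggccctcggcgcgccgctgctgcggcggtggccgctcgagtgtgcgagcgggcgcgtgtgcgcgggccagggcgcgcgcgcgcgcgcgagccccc
*IRS1* (chr2:226799821-226800070, minus strand): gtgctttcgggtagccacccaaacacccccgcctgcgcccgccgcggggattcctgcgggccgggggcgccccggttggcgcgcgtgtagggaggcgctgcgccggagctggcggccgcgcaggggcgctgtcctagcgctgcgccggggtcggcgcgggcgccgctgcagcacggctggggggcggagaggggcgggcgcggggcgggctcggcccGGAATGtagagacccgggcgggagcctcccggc

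At the starts used here, the genes that rose in H82 and fell in H146 and those that did the reverse differed in base composition. *IGFBP2* has 3 RefSeq entries, and only the one at the outermost gene start was read, so its values hold for that start alone. G and C made up 56.8%, 71.6% and 61.2% of the *IGFBP2*, *IGFBP4* and *IGFBP5* stretches, with 7, 24 and 8 CpG dinucleotides. The *IGF1R* and *IRS1* stretches were 81.2% and 80.8% G and C, with 48 and 39 CpG, whereas the median of 35116 RefSeq promoters of this length was 58.0% with 11 CpG. Such a content was not particular to these genes. *IGF2R* and *IRS2*, which were not called in opposite directions, had 79.2% with 33 CpG and 76.4% with 42 CpG. *IGFBP2* held 3 E-box matches and *IGFBP4* held 1, while *IGFBP5*, *IGF1R* and *IRS1* held none. An E-box match occurred in 61.8% of all promoters. *IGFBP5* and *IRS1* each held 1 TEAD match, which 11.9% of all promoters had. No AP-1 (TGANTCA) or FOXO (TGTTTAC) match lay in the 5 stretches, with 6.57% and 2.98% of all promoters holding one. The 5 genes are too few to test, and a match is only a run of letters.

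*IGFBP2*, a secreted binding protein with high affinity for IGF2, had the highest mean of the axis genes in all 4 groups. In H82 it stood at 156, 133 and 159 TPM untreated and at 212, 304 and 267 TPM with FHD-286. All treated libraries lay above all untreated ones, as in 67.8% of the genes tested in H82 in one direction or the other. The mean went from 149 ± 14.4 to 261 ± 46.4 TPM (SD, n = 3 and 3), a log2 difference of 0.79 (SE 0.18, limma adjusted *p* = 0.00772).

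In H146 the same gene was at 372, 499 and 477 TPM untreated and at 179, 148, 144 and 163 TPM treated. Here all treated libraries lay below all untreated ones, where 52.9% of the genes tested in H146 had no overlap in either direction. The log2 difference was -1.49 (SE 0.14, limma adjusted *p* = 0.000128). The change differed between the lines by -2.28 (H146 minus H82, limma adjusted *p* = 7.2e-06).

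*IGFBP5*, a binding protein that also attaches to extracellular matrix, showed the widest range. Untreated H146 libraries held 238, 504 and 189 TPM, and treated ones held 10.1, 10.8, 6.73 and 5.35 TPM. The groups were far apart, with a mean of 311 ± 169 against 8.26 ± 2.65 TPM (SD, n = 3 and 4) and a log2 difference of -4.99 (SE 0.35, limma adjusted *p* = 2.9e-05).

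In untreated H82 *IGFBP5* was under 1 TPM, at 0.536, 0.725 and 0.890 TPM. With FHD-286 it reached 5.42, 71.6 and 8.87 TPM, so every treated library was higher but library 2 was far above its group. The log2 difference was 3.28 (SE 0.84, limma adjusted *p* = 0.0129), and without treated library 2 it was 2.22 (limma adjusted *p* = 0.00205). The filter favoured a rise here, since the gene passed it only through the treated libraries, and with no filter the limma adjusted *p* was 0.0304. Library 2 is also the one with the most RNA from genes that mark H146, and the part of that in the *IGFBP5* value was not tested. The line difference was -8.27 (limma adjusted *p* = 2.08e-05), or -7.20 without treated H82 library 2. Of its exonic bases, 7.53% overlap *DIRC3-AS1* on the opposite strand.

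*IGFBP4*, a binding protein that the protease PAPPA cleaves to release its IGF, stood at 54.2, 66.0 and 55.5 TPM in untreated H146. Treated H146 libraries held 4.34, 5.66, 9.75 and 9.65 TPM, all well below the untreated ones. The log2 difference was -2.89 (SE 0.26, limma adjusted *p* = 9.85e-05).

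In H82 *IGFBP4* went from 8.02, 6.13 and 6.42 TPM to 12.5, 10.6 and 19.4 TPM, again with no overlap but in the other direction. The log2 difference was 0.91 (SE 0.25, limma adjusted *p* = 0.0166). This call was lost without untreated library 2 (0.85, limma adjusted *p* = 0.0612) or untreated library 3 (0.88, limma adjusted *p* = 0.0605). The line difference was -3.81 (limma adjusted *p* = 7.9e-06).

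*IGFBP3*, the main carrier of IGFs in serum, was low in both lines. All untreated H82 libraries listed it at 0, and the treated ones at 1.59, 0.0304 and 5.44 TPM. The groups did not overlap (exact permutation *p* = 0.1, two-sided, the smallest that 3 against 3 allows). H146 libraries held 0.549, 0.819 and 0.401 TPM untreated and 0.336, 0.349, 1.38 and 1.05 TPM treated, so the groups overlapped (exact permutation *p* = 0.743). Its line difference of -1.24 was not called (limma adjusted *p* = 0.127), but it was without treated H82 library 2 (-1.91, limma adjusted *p* = 0.00492). *IGFBP3* entered that fit only through treated libraries, which favoured a rise in each line, so the call without library 2 supports nothing further. With no filter and all 13 libraries the limma adjusted *p* was 0.191.

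Summed over *IGFBP1* to *IGFBP7*, the binding proteins made 675, 1081 and 735 TPM in untreated H146 and 202, 170, 179 and 196 TPM in treated H146. In H82 the sum was 166, 140 and 167 TPM untreated and 239, 388 and 310 TPM treated, so the untreated lines were further apart than the treated ones. *IGFBP2* made up 46.2% to 64.9% of the sum in H146 without drug and 80.4% to 88.4% with it. Its share went the other way in H82, from 94.1% to 95.4% untreated to 78.4% to 88.8% treated. *IGFBP5* gave 25.7% to 46.7% of the H146 sum without drug and 2.73% to 6.36% with it.

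**Figure D2:**
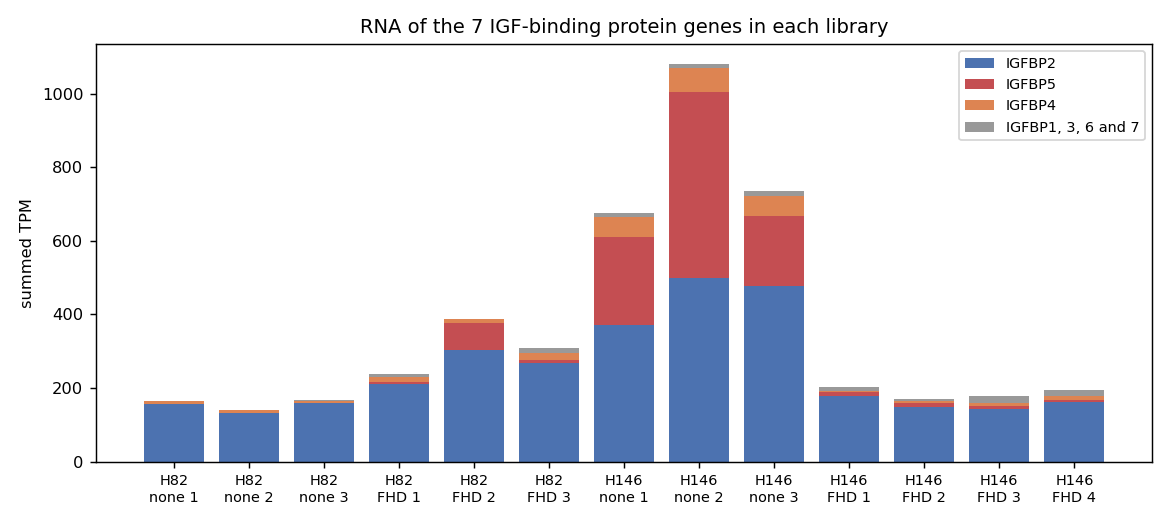
Summed TPM of the 7 IGF-binding protein genes in each of the 13 libraries, stacked by gene, for H82 and H146 untreated ("none") and with FHD-286 ("FHD"). Untreated H146 libraries reach 675 to 1081 TPM with a large *IGFBP5* block, whereas treated H146 (170 to 202 TPM) and treated H82 (239 to 388 TPM) consist mostly of *IGFBP2*.

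*IGFBP2* and *IGFBP5* are neighbours on chromosome 2 (hg38, 216632828 to 216664436 on the plus strand and 216672105 to 216695549 on the minus strand). Their ends face each other across 7.669 kb. The nearest tested gene on the other side of *IGFBP2*, the ribosomal protein gene *RPL37A*, had differences of 0.61 in H82 and -0.35 in H146 that were not called (limma adjusted *p* = 0.0693 and 0.102). Beyond *IGFBP5*, the actin-regulating *ARPC2* lay 1522 kb away with differences of 0.06 and 0.48 (limma adjusted *p* = 0.843 and 0.0505). *IGFBP4* is on chromosome 17 (40443450 to 40457725, plus strand), 25.6 kb from the topoisomerase gene *TOP2A*, which was not called in either line (-0.84 and -0.32, limma adjusted *p* = 0.072 and 0.0965).

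The genes most like *IGFBP2* across libraries, by the smaller of its Pearson correlations within H82 (6 libraries) and within H146 (7 libraries), were *HES6*, *SMOC1* and *CLIC1*. The pairs of values were 0.984 and 0.980 for *HES6*, 0.985 and 0.977 for *SMOC1*, and 0.975 and 0.972 for *CLIC1*. Both groups of a line enter these values, so they mostly reflect treatment. *HES6*, a bHLH gene of neuroendocrine and neural cells, went from a mean of 154 to 262 TPM in H82 and from 1018 to 151 TPM in H146. *SMOC1*, which encodes a matrix-associated protein, went from 6.79 to 34.2 TPM and from 61.6 to 0.986 TPM.

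*IGF1R*, the signalling receptor, was higher than *IGF2R* in untreated H82. Its libraries held 101, 98.6 and 99.3 TPM untreated and 23.5, 34.1 and 42.6 TPM with FHD-286. The treated libraries all lay below the untreated ones, with means of 99.5 ± 1.11 and 33.4 ± 9.56 TPM (SD, n = 3 and 3) and a log2 difference of -1.59 (SE 0.22, limma adjusted *p* = 0.0010).

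In H146 *IGF1R* was about an order of magnitude lower to begin with, at 9.32, 10.2 and 6.99 TPM, and stood at 15.3, 14.7, 12.1 and 12.1 TPM with treatment. The groups did not overlap, and the log2 difference was 0.57 (SE 0.17, limma adjusted *p* = 0.0241). This call was lost without untreated library 1 (0.61, limma adjusted *p* = 0.0584), untreated library 3 (0.43, limma adjusted *p* = 0.085) or treated library 1 (0.51, limma adjusted *p* = 0.0605). It was also lost with median-of-ratios (0.28, limma adjusted *p* = 0.2) and quantile scaling (0.32, limma adjusted *p* = 0.137). The line difference of 2.16 was called (limma adjusted *p* = 4.19e-05).

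*IGF2R*, which clears IGF2 and sorts lysosomal enzymes, moved less. In H82 it was at 53.2, 51.1 and 53.0 TPM untreated and 25.5, 40.6 and 41.4 TPM treated, without overlap. The log2 difference of -0.57 (SE 0.20) only just passed (limma adjusted *p* = 0.0468) and lay close to the median of all tested genes (-0.56). It was lost without untreated library 1, 2 or 3 (limma adjusted *p* = 0.124, 0.104 and 0.123) or treated library 2 (-0.67, limma adjusted *p* = 0.0509), and was -0.09 with median-of-ratios scaling (limma adjusted *p* = 0.695).

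In H146 *IGF2R* stood at 75.6, 81.1 and 56.1 TPM untreated and 72.6, 68.0, 61.2 and 55.8 TPM treated, so the groups overlapped. The log2 difference was -0.13 (95% interval -0.49 to 0.24, limma adjusted *p* = 0.535). With median-of-ratios scaling it was called lower (-0.44, limma adjusted *p* = 0.0438). The line difference of 0.44 was not called (limma adjusted *p* = 0.164).

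*IRS1*, the first docking protein downstream of the receptor, followed *IGF1R*. In H82 it was at 28.5, 24.5 and 27.1 TPM untreated and 7.68, 8.53 and 9.44 TPM treated. All treated libraries were lower, with a log2 difference of -1.54 (SE 0.15, limma adjusted *p* = 0.000351). Levels in H146 were 1.53, 1.73 and 1.05 TPM untreated and 3.74, 2.85, 5.75 and 4.76 TPM treated. All treated libraries were higher, with a log2 difference of 1.09 (SE 0.23, limma adjusted *p* = 0.00553) and a line difference of 2.63 (limma adjusted *p* = 1.37e-05).

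*IRS2*, the other main docking protein, was lower with FHD-286 in both lines. In H82 it went from 14.8, 16.9 and 17.7 TPM to 9.43, 7.72 and 8.01 TPM, a log2 difference of -0.90 (SE 0.16, limma adjusted *p* = 0.00314). That call was lost with median-of-ratios (-0.45, limma adjusted *p* = 0.06) and quantile scaling (-0.32, limma adjusted *p* = 0.129). In H146, where it was the more abundant IRS gene, it went from 98.8, 96.3 and 88.6 TPM to 48.3, 77.0, 37.4 and 35.7 TPM without overlap. The log2 difference was -0.98 (SE 0.25, limma adjusted *p* = 0.0116), and the line difference of -0.08 was not called (limma adjusted *p* = 0.832).

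**Figure D3:**
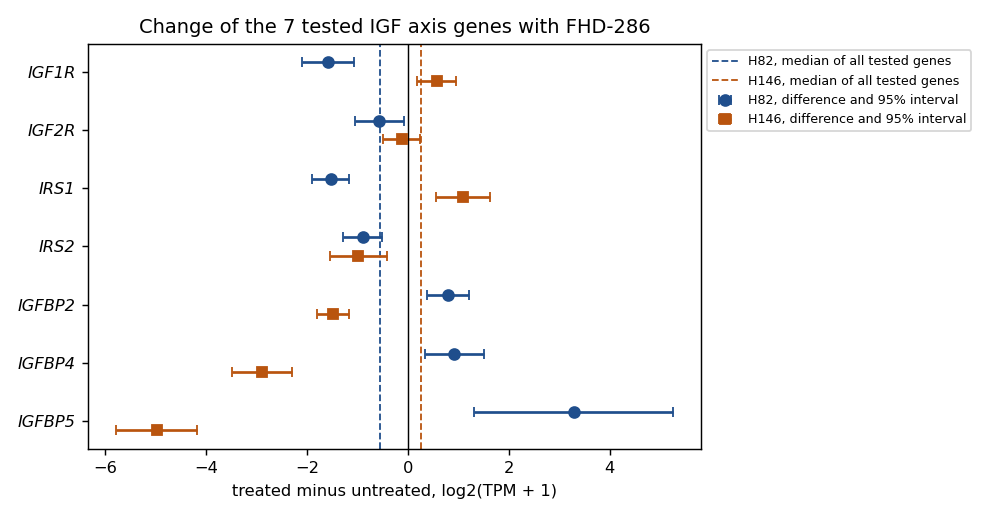
Treated minus untreated difference of the 7 tested IGF axis genes on the log2(TPM + 1) scale, with 95% intervals, for H82 (circles) and H146 (squares); dashed lines are the medians of all tested genes (-0.56 in H82, 0.25 in H146). *IGF1R* and *IRS1* lie left of 0 in H82 and right of 0 in H146, the 3 binding proteins do the reverse, and *IRS2* lies left of 0 in both.

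Ratios between axis genes within a library do not depend on how libraries are scaled, and 4 of them were taken after the values had been seen. The *IGF1R* to *IGF2R* ratio was 1.89, 1.93 and 1.87 in untreated H82 and 0.921, 0.840 and 1.03 in treated H82. In H146 it was 0.123, 0.126 and 0.125 untreated and 0.211, 0.216, 0.198 and 0.216 treated. The ratio thus was lower with treatment in H82 and higher in H146, with no overlap in either line (log2 differences -1.03 and 0.75). Within a line the exact permutation test cannot go below *p* = 0.1 in H82 and 0.0571 in H146, and both ratios were at these limits.

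The *IRS1* to *IRS2* ratio was 1.92, 1.45 and 1.53 in untreated H82 and 0.815, 1.10 and 1.18 in treated H82. In H146 it was 0.0155, 0.0180 and 0.0119 untreated and 0.0774, 0.0370, 0.154 and 0.133 treated. Again the direction differed between lines (log2 differences -0.67 and 2.55). The change in ratio was apart between the lines by 1.79 for *IGF1R*/*IGF2R* and by 3.22 for *IRS1*/*IRS2* (log2, H146 minus H82), differences that were not tested.

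Among binding proteins, the ratio of *IGFBP5* to *IGFBP2* had log2 differences of 3.63 in H82 and -3.66 in H146, -7.29 apart. Without treated H82 library 2, where the ratio was 0.235 against 0.0255 and 0.0332 in the others, the H82 value was 2.62. *IGFBP4* relative to *IGFBP2* had a log2 difference of 0.21 in H82, where the groups overlapped (exact permutation *p* = 0.6), and of -1.57 in H146. These were -1.79 apart, and the H82 value ranged from -0.0135 to 0.51 when 1 library was left out.

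**Figure D4:**
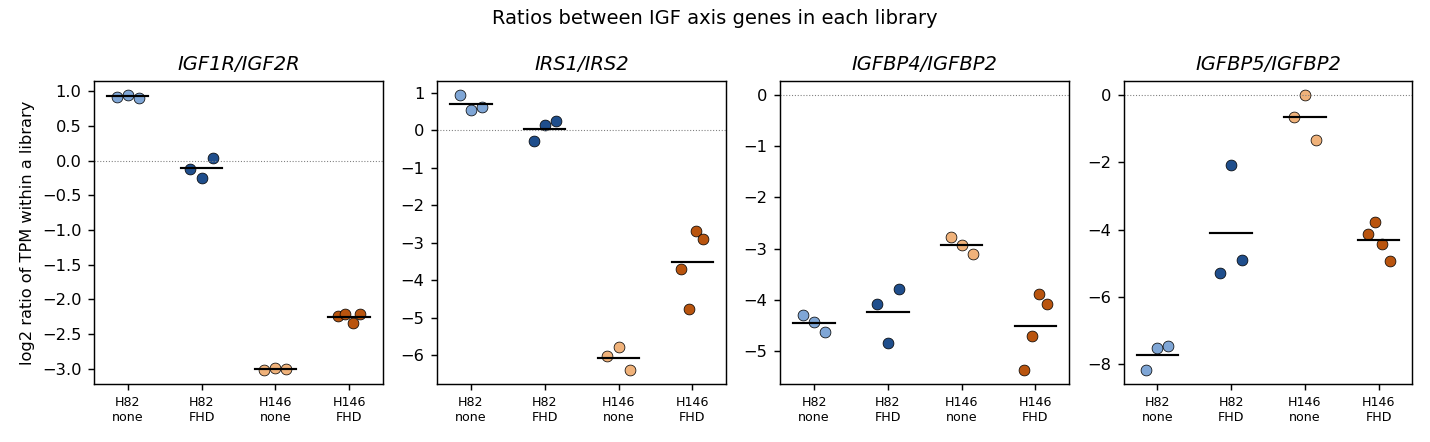
Log2 ratio of TPM between pairs of IGF axis genes in each library, 1 point per library with a line at the group mean, for H82 and H146 untreated ("none") and with FHD-286 ("FHD"); the dotted line is a ratio of 1 and each panel has its own axis. *IGF1R*/*IGF2R* and *IRS1*/*IRS2* are lower in treated H82 and higher in treated H146, and *IGFBP5*/*IGFBP2* is the reverse.

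The ligand genes themselves were listed at under 1 TPM in all 13 libraries. *IGF1* was at 0.0252 to 0.0708 TPM in untreated and 0.103 to 0.173 TPM in treated H82, without overlap (exact permutation *p* = 0.1, the smallest possible). H146 libraries had 0.0118 to 0.0537 TPM untreated and 0.0246 to 0.0787 TPM treated (exact permutation *p* = 0.286). Since 82.5% of its exonic bases overlap *HELLPAR* on the opposite strand and strand use in counting is not given in the sources used here, reads of the pair cannot be told apart. *HELLPAR* was listed at 0.487 to 0.748 TPM in untreated H82 and at 0.0278 to 0.0398 TPM in treated H82, the opposite direction to *IGF1*.

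*IGF2* had 0 TPM listed in H82 without drug, against 0.0514, 0.895 and 0.0183 TPM with it (exact permutation *p* = 0.1, the smallest possible). Its highest value was again in treated library 2, and the difference on the log2 scale was 0.34 with that library and 0.0492 without it. The H146 libraries had 0.0375 to 0.180 TPM untreated and 0.0763 to 0.402 TPM treated, with overlap (exact permutation *p* = 0.286). *IGF2* shares 43.2% of its exonic bases with other genes on its own strand, among them the read-through *INS-IGF2*, which was listed at 0 in all 13 libraries, so its level is uncertain.

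In order of mean TPM, untreated H82 ran *IGFBP2*, *IGF1R*, *IGF2R*, *IRS1*, *IRS2*, *IGFBP4* and *IGFBP5*. Each neighbouring pair among these was separated, with no overlap of libraries. Untreated H146 ran *IGFBP2*, *IGFBP5*, *IRS2*, *IGF2R*, *IGFBP4*, *IGF1R* and *IRS1*. There *IGFBP2* (372 to 499 TPM) overlapped *IGFBP5* (189 to 504 TPM), and *IGF2R* (56.1 to 81.1 TPM) overlapped *IGFBP4* (54.2 to 66.0 TPM), while the other neighbouring pairs were separated.

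Genes beside the receptor and adaptor genes gave varied values. *ARRDC4*, an arrestin-domain gene 675 kb before *IGF1R* on chromosome 15 and its nearest tested neighbour on that side, also had opposite calls (-1.46 in H82 and 3.01 in H146, limma adjusted *p* = 0.0299 and 8e-06). *SYNM*, the intermediate filament gene on the other side, had -0.14 in H82 and -1.25 in H146 (limma adjusted *p* = 0.665 and 0.00545). *RHBDD1*, a rhomboid protease gene 35.8 kb from *IRS1* on chromosome 2, was lower in H82 (-0.82, limma adjusted *p* = 0.00207) and at 0.22 in H146 (limma adjusted *p* = 0.284).

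The rest of the insulin and IGF pathway was given by 51 genes, of which 43 were tested in each line. In H82, 21 were lower and 4 higher, with a median of -0.55 beside -0.56 for all tested genes. In H146, 4 were lower and 19 higher, with a median of 0.43 beside 0.25. Of all tested genes, 45.5% were lower and 13.1% higher in H82, and 15.5% lower and 32.5% higher in H146. The H82 counts lie close to these shares. With median-of-ratios scaling the counts were 14 lower and 7 higher in H82, and 7 lower and 17 higher in H146. At that scaling 32.9% of all tested genes were lower and 24.2% higher in H82, and 25.1% lower and 21.3% higher in H146. The H82 count of higher genes was 2 without untreated library 2 and 7 without treated library 1, where 9.73% and 19.3% of all tested genes were higher. *PAPPA*, *PAPPA2* and *IGFALS* passed the filter in H82 only through untreated libraries, and *IGF2BP2* in H146 only through treated ones. The counts therefore describe these genes and support nothing further.

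Of 39 pathway genes tested in both lines, 12 were lower in H82 and higher in H146, and 2 did the reverse. The 12 were *INSR*, *SH2B1*, *SOS1*, *PTPN11*, *PIK3CA*, *PIK3CB*, *TSC1*, *TSC2*, *MTOR*, *GSK3B*, *FOXO3* and *IGF2BP2*, and the 2 were *IGFBPL1* and *STC2*. *IGF2BP2* was at 0.527 to 0.664 TPM in untreated and 1.53 to 4.25 TPM in treated H146. It passed the H146 filter only through treated libraries, which favoured a rise, so the count is a description. Over all genes tested in both lines, 13.2% were lower in H82 and higher in H146 and 2.3% were the reverse. With median-of-ratios scaling the pathway counts were 4 and 3, beside 4.8% and 8% of all genes.

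Among ligands and receptors, *INSR*, the insulin receptor that can pair with IGF1R, was at 36.0, 37.2 and 34.7 TPM in untreated and 12.5, 12.3 and 14.7 TPM in treated H82. H146 cells had 3.82, 3.99 and 2.97 TPM untreated and 9.42, 7.36, 9.53 and 9.99 TPM treated. It therefore moved like *IGF1R*, with log2 differences of -1.39 and 1.13 (limma adjusted *p* = 0.000356 and 0.0011). *FURIN*, which cleaves the receptor precursors, rose in H82 (0.96, limma adjusted *p* = 0.0133, or 0.0542 without untreated library 2) and had 0.26 in H146 (limma adjusted *p* = 0.35).

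Among other binding proteins and partners, *IGFBPL1* was at 1.31 to 3.32 TPM in untreated and 8.09, 48.4 and 15.1 TPM in treated H82 (2.62, limma adjusted *p* = 0.00826). Treated library 2 held the 48.4 TPM, and without it the difference was 1.94 (limma adjusted *p* = 0.00775). In H146 it was far more abundant, at 386 to 517 TPM untreated and 256 to 380 TPM treated (-0.55, limma adjusted *p* = 0.0287). The H146 call was lost without untreated library 1, untreated library 2 or treated library 1 (limma adjusted *p* = 0.078, 0.113 and 0.0683). *IGFALS*, a partner in the serum IGF complex, was lower in H82 (-1.16, limma adjusted *p* = 0.00361, or -0.23 and 0.421 with quantile scaling) and had 0.51 in H146 (limma adjusted *p* = 0.0855).

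Of the proteases and their inhibitors, *PAPPA2*, which cuts binding proteins, was at 9.66 to 11.3 TPM in untreated and 0.0437 to 0.152 TPM in treated H82 (-3.37, limma adjusted *p* = 9.6e-05). It was under 0.1 TPM in H146. *PAPPA2* and *IGFALS* passed the filter in H82 only through the untreated libraries, which favoured a fall, and with no filter their limma adjusted *p* values were 0.00055 and 0.0161. *HTRA1*, a secreted serine protease, was lower in both lines (-1.73 in H82 and -3.08 in H146, limma adjusted *p* = 0.00117 and 9.14e-05). *STC2*, an inhibitor of PAPPA, was higher in H82 (1.76, limma adjusted *p* = 0.0222) and lower in H146 (-1.42, limma adjusted *p* = 0.0041). Without treated H82 library 2 the H82 value of *STC2* was 1.16 (limma adjusted *p* = 0.0188). The *STC2* call in H82 was lost without any 1 of the untreated libraries 1, 2 and 3 (limma adjusted *p* = 0.0643, 0.075 and 0.0555).

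Of 11 other adaptors, 4 of 10 tested were lower in H82 and 6 of 11 were higher in H146, where 45.5% and 32.5% of all tested genes were. With median-of-ratios scaling 1 was lower and 2 higher in H82, beside 32.9% and 24.2% of all tested genes. At that scaling 6 were higher in H146, beside 21.3%. *SOS1*, the RAS exchange factor, was at 42.7 to 49.9 TPM in untreated and 10.4 to 19.6 TPM in treated H82, and at a mean of 13.7 ± 3.38 TPM in untreated and 38.8 ± 6.10 TPM in treated H146 (SD, n = 3 and 4), where the groups did not overlap. The log2 differences were -1.51 and 1.45 (limma adjusted *p* = 0.00183 and 0.00073).

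Of 17 tested genes of PI3K, AKT and mTOR signalling, 9 were lower and 1 higher in H82, beside 45.5% and 13.1% of all tested genes. In H146, 1 was lower and 9 higher, beside 15.5% and 32.5% of all tested genes. With median-of-ratios scaling 6 were lower and 2 higher in H82, beside 32.9% and 24.2% of all tested genes. At that scaling 4 were lower and 7 higher in H146, beside 25.1% and 21.3%. *RICTOR*, of mTOR complex 2, was lower in H82 (-1.75, limma adjusted *p* = 0.000343) and had -0.06 in H146 (limma adjusted *p* = 0.797). *RHEB*, the small GTPase that activates mTOR, was higher in H82 (0.79, limma adjusted *p* = 0.00333) and had -0.06 in H146 (limma adjusted *p* = 0.663). *RPTOR*, of mTOR complex 1, was higher in H146 (1.60, limma adjusted *p* = 0.00239) and had -0.16 in H82 (limma adjusted *p* = 0.713), a sign that turned with other scalings. *PIK3R1*, a regulatory PI3K subunit, fell in H146 (-0.90 with limma adjusted *p* = 0.00414) but had -0.15 in H82 (limma adjusted *p* = 0.71), which also turned.

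*FOXO3*, a transcription factor that AKT keeps out of the nucleus, was at 53.4 to 55.5 TPM in untreated and 27.7 to 32.2 TPM in treated H82, and at 11.6 to 18.5 TPM in untreated and 25.4 to 35.6 TPM in treated H146. The log2 differences were -0.87 and 0.87 (limma adjusted *p* = 0.00136 and 0.00599). Of the IGF2 mRNA-binding proteins, *IGF2BP1* was lower in H82 (-1.90, limma adjusted *p* = 0.00986) and *IGF2BP3* was higher in H146 (1.45, limma adjusted *p* = 0.000851). *IGF2BP3* had -0.44 in H82 (limma adjusted *p* = 0.0579), which passed without treated library 1 (-0.29, limma adjusted *p* = 0.0163).

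**Figure D5:**
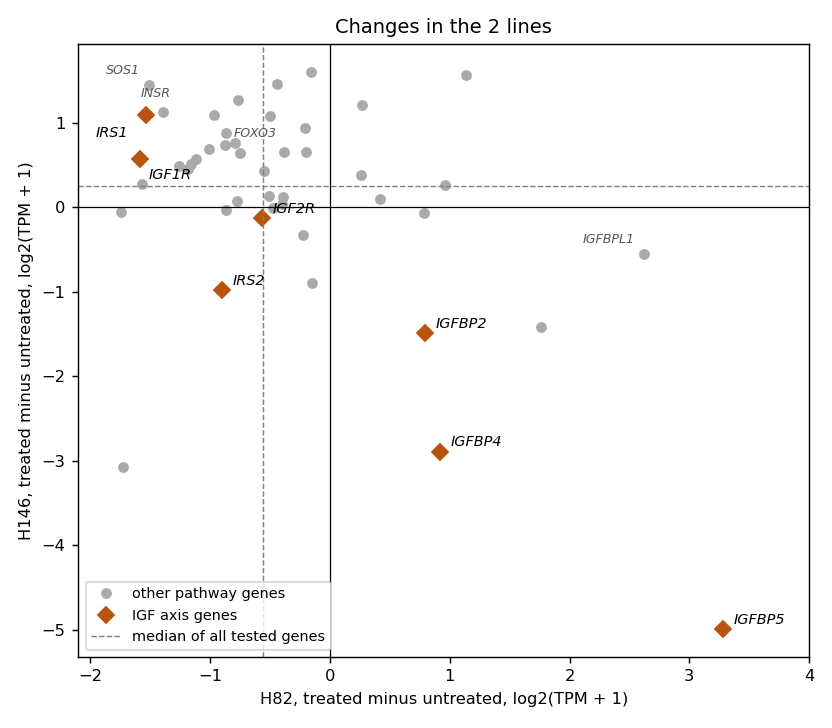
Treated minus untreated difference on the log2(TPM + 1) scale in H82 (horizontal) and H146 (vertical) for the 7 tested IGF axis genes (diamonds) and the 39 other pathway genes tested in both lines (grey circles); dashed lines are the medians of all tested genes (-0.56 and 0.25). *IGF1R* and *IRS1* lie at the upper left among *INSR*, *SOS1* and *FOXO3*, and *IGFBP2*, *IGFBP4* and *IGFBP5* lie at the lower right.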

How the data were processed

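RNA was measured by sequencing in 13 libraries of H82 and H146 cells. The authors trimmed reads with Trim Galore 0.4.4, aligned with STAR to hg38, took gene counts from it under GENCODE gene models, and used DESeq2; they deposited 1 table of TPM values per line. How gene length was taken, and whether strand was used, is not given in the sources used here. TPM keeps no depth, so the spread between libraries sets the precision.

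Groups came from the sample titles. The 10 genes and the pathway list were chosen with earlier results of these data known. limma 3.58.1 (R 4.3.3, trended variance) was fitted per line on log2(TPM + 1), on genes that reached 1 TPM in 3 or more libraries of the line. For the line difference it was fitted over all 13 libraries, on genes that reached 1 TPM in 3 or more of them. Benjamini-Hochberg adjustment was over all tested genes of each fit. The fit per line was tested on simulated data, with 100 genes changed by 1 and 100 by 2 on the log2 scale. It called 38% and 80% of these in H82, and 55% and 91% in H146. Changes of 1 were thus often missed. Of unchanged genes, 7 were called in H82 and 10 in H146. Far fewer genes changed there than were called in the data, so these shares may not carry over. Genes under the filter and ratios had exact permutation tests (SciPy 1.17.1). All 10 genes were named, with the largest called rise and fall of each pathway role in each line, the 3 genes most like *IGFBP2*, and nearest tested neighbours. One neighbour of *IGF1* is not reported here. Gene positions came from GENCODE (hg38), and promoter sequences from RefSeq, where 8 of the 10 genes had a usable entry. The entry of *IGFBP3*, which is not shown, starts inside the GENCODE gene. Alternatives were the pseudocount, filter, scaling, mitochondrial genes, replicate block, variance model and leaving out each library.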

Additional observations from a re-analysis of the deposited data

Results flagged for a closer look

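The change with FHD-286 differed between the lines by limma's test of that difference for these genes, given as H146 minus H82 on the log2 scale. Of all tested genes, 59.3% were called in that test. Among axis genes the values were 2.16 for *IGF1R*, -2.28 for *IGFBP2*, -3.81 for *IGFBP4*, -8.27 for *IGFBP5* and 2.63 for *IRS1*. Among pathway genes they were 1.74 for *FOXO3*, -1.35 for *HTRA1*, 2.45 for *IGF2BP1*, 1.90 for *IGF2BP3*, 1.67 for *IGFALS*, -3.17 for *IGFBPL1*, 2.52 for *INSR*, 3.39 for *PAPPA2*, -0.85 for *RHEB*, 1.69 for *RICTOR*, 1.76 for *RPTOR*, 2.96 for *SOS1* and -3.18 for *STC2*. Without treated H82 library 2 the values were -7.20 for *IGFBP5*, -2.50 for *IGFBPL1* and -2.58 for *STC2*. The *HTRA1* value is a difference in size, since the gene was lower in both lines. *PAPPA2* and *IGF2BP1* were too low in H146 to be tested there alone. *PAPPA2* entered the test of the line difference only through untreated H82 libraries, which favoured a fall in H82. With quantile scaling the *IGFALS* value was 0.49 and was not called (limma adjusted *p* = 0.172).

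For 3 within-library ratios every treated library lay on one side of the untreated ones in H82 and on the other side in H146. The log2 changes were 1.79 apart for *IGF1R*/*IGF2R*, 3.22 for *IRS1*/*IRS2* and -7.29 for *IGFBP5*/*IGFBP2* (H146 minus H82), and these differences were not tested.

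In the 4 treated H146 libraries, 1 library lay far from the other 3 for 3 of the 25 genes checked, by the gap to the nearest library relative to the group's range. These were *HTRA1* at 5.48 TPM, *IGFALS* at 3.35 TPM and *RICTOR* at 7.82 TPM, each the highest of its group, and each in a different library. Chance flags about 1 in 20 groups. Groups of 3 were not checked.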

How the results depend on the processing

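Most values kept their direction and call under the alternatives. With median-of-ratios scaling, 2 axis genes were lower in H82 and 1 was higher in H146, and 7 pathway genes were higher in H82 and 7 lower in H146. Of all tested genes, that scaling put 32.9% lower and 24.2% higher in H82, and 25.1% lower and 21.3% higher in H146. Quantile scaling left 1 axis gene higher in H146, beside 23.7% of all tested genes. Library weights gave 7 pathway genes higher in H82, beside 20.1% of all tested genes. Leaving out 1 library gave 1 to 2 axis genes higher in H146 and 2 to 7 pathway genes higher in H82. The shares of all tested genes that were higher moved as well, from 22.5% to 38.6% in H146 and from 9.52% to 19.3% in H82.

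Signs that turned belonged to values that were not called. With median-of-ratios scaling these were *IGF2R* line difference -0.36, *FURIN* in H146 -0.047, *IGF2BP3* in H82 0.0373, *PIK3R1* in H82 0.28, *RPTOR* in H82 0.31 and *IGFBP3* in H146 -0.0023. Quantile scaling gave 0.61 for *PIK3R1* and 0.14 for *RPTOR*, and library weights 0.11 and 0.15. The *IRS2* line difference was 0.0536 without mitochondrial genes. Leaving out 1 library gave -0.32 to 0.0469 for the *IRS2* line difference, -0.51 to 0.0879 for *PIK3R1* and -0.45 to 0.26 for *RPTOR* in H82, -0.17 to 0.0143 for *RICTOR* and -0.0311 to 0.25 for *IGFBP3* in H146, and -0.0135 to 0.51 for the *IGFBP4*/*IGFBP2* ratio in H82. The causes were not tested.

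Replicate numbers did not pair the libraries, since deviations of same-numbered libraries correlated at -0.111 to 0.027. With the replicate block, *IGF2R* in H82 was no longer called (limma adjusted *p* = 0.0646) and the *IRS2* line difference was 0.0469. The block changed no other call among the named genes, while the pathway counts went from 21 to 20 lower in H82 and from 19 to 18 higher in H146. Over all tested genes the shares went from 45.5% to 43.6% lower in H82 and from 32.5% to 24.2% higher in H146. Depth is unknown, so *IGF1*, *IGF2* and *IGFBP3* cannot be placed above or below a detection limit.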
